A study of Homo sapiens with 15 samples.

Results

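To describe glycogen metabolism in co-cultured lung fibroblasts and small cell lung cancer (SCLC) cells, the mRNA levels of 9 genes of glycogen synthesis and breakdown were taken from both deposited expression tables. The genes were taken by symbol, with no threshold on a measured value, from a list drawn up with earlier results of these data known: GYG1, UGP2, PGM1, GYS1, GBE1, PYGL, PYGB, PPP1R3B and PPP1R3C. All 9 were found, among 16382 genes listed in the MRC5 table and 16076 genes listed in the H196 table, and all 9 passed the filter on low counts in both. RNA was sequenced from 15 libraries in 5 groups of 3. MRC5, a human lung fibroblast line, was cultured alone (MRC5_Mo), with the neuroendocrine (NE) SCLC line H69 (MRC5_CoH69) or with the non-NE SCLC line H196 (MRC5_CoH196), and H196 was cultured alone (H196_Mo) or with MRC5 (H196_Co). Cultures were kept for 7 days, and the partner cells sat in a transwell insert with 0.4 µm pores, so that medium but not cells could be shared. No drug was added and no gene was altered in any group. The fibroblasts and the cancer cells were maintained in different media, and the medium of the co-cultures is not stated. A change of medium therefore cannot be told apart from an effect of the partner where co-culture is compared with culture alone. Each line is a single commercial line, and nothing in the sources says that the 3 libraries of a group came from independent experiments. The p-values therefore measure the spread between these libraries only.

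Glycogen is the branched polymer in which cells store glucose. Glycogenin starts a chain, glycogen synthase lengthens it from UDP-glucose, the branching enzyme adds branch points, and glycogen phosphorylase releases glucose 1-phosphate again. Protein phosphatase 1, held on the glycogen particle by its PPP1R3 targeting subunits, activates the synthase and inactivates the phosphorylase. Cells of several kinds, tumor cells among them, are known to store glycogen when oxygen is low.

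Total expected counts per library ranged from 16073597 to 19170560. In the MRC5 libraries all 8 fibroblast markers had at least 10 counts in every library. Their summed level was 26873 to 29917 CPM (counts scaled to the library total) in MRC5_Mo, 30766 to 31787 in MRC5_CoH69 and 12804 to 13561 in MRC5_CoH196. In the test described below, 4 of the 8 passed as higher and 3 as lower in MRC5_CoH196 against MRC5_Mo. Over all genes, 37.2% passed as higher and 37.1% as lower. With library totals in that test, 3 of the 8 passed as higher and 4 as lower. In H196 only 1 of the 8 reached 10 counts in every library, the sum was 2.05 to 3.09 CPM, and COL1A2 was at 0 in H196_Mo. The neuroendocrine markers summed to 64.7 to 69.7 CPM in H196 and to 0.646 to 1.497 CPM in MRC5, also after culture with the NE line H69, and NCAM1 was at 0 in H196_Mo. Of these 8 markers, 3 had at least 10 counts in every H196 library, and CHGB, DLL3 and SYP passed the filter on low counts there. Of 10 hypoxia-responsive reporter genes, the summed level was 1784 to 1803 CPM in MRC5_Mo, 1978 to 2047 in MRC5_CoH69 and 8281 to 9182 in MRC5_CoH196, and 1938 to 2016 in H196_Mo against 3256 to 3756 in H196_Co, where CA9 was at 0. The part of the reporters' and fibroblast markers' changes in the results that follow was not tested. In bulk RNA, a change in the share of cells that express a gene and a change per cell cannot be told apart.

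Promoter windows of 5 genes are printed first, because GBE1, GYS1, PPP1R3C and PYGL are 4 of the 5 members whose mRNA passed the test in both lines when MRC5 and H196 were cultured together, while GYG1 passed in neither. No window was matched to the fifth, PPP1R3B, so its letters were not counted. Each window is the RefSeq sequence (GRCh38.p14) from 250 bases before to 50 bases after the annotated start, read in the direction of the gene. Capitals mark ACGTG and GCGTG on either strand, the core letters of a hypoxia response element. CACGTG, the E-box, contains ACGTG on both strands and was counted as 2 matches.
GBE1, chr3:81761596-81761895, minus strand: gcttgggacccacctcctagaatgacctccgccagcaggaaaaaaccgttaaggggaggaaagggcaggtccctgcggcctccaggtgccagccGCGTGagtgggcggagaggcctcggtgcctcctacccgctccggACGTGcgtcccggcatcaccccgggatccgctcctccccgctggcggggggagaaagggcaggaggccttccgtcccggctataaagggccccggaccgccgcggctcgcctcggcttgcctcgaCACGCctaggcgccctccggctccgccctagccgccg
GYS1, chr19:48993260-48993559, minus strand: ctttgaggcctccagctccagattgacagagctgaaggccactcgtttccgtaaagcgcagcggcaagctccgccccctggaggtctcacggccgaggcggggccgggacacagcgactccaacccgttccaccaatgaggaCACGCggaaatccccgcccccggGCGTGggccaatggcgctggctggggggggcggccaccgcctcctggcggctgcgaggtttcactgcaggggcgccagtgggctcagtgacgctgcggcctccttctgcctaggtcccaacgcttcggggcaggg
PPP1R3C, chr10:91633022-91633321, minus strand: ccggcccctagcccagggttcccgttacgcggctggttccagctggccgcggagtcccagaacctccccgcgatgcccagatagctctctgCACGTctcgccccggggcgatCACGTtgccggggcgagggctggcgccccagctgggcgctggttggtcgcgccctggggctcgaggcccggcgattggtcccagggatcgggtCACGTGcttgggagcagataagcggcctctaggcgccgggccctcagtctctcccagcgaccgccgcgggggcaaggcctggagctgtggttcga
PYGL, chr14:50944434-50944733, minus strand: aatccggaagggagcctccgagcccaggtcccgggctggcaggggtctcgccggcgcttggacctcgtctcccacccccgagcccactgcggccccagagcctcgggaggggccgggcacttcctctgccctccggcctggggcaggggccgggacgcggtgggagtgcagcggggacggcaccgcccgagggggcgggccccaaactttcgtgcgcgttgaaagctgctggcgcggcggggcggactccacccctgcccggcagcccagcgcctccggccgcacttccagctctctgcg
GYG1, chr3:148991290-148991589, plus strand: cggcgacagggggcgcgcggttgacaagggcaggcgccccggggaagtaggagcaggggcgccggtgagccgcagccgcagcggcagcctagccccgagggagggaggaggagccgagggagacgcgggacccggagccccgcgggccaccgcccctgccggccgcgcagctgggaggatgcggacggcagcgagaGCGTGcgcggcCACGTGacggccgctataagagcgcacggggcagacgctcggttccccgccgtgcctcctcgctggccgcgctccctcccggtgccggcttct

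Of these windows, PPP1R3C held 4 matches, all ACGTG, and 2 of them formed a CACGTG that began 45 bases before the start. The last bases of the PPP1R3C window, unlike those of the other windows, were not found in a transcript of the gene in the GENCODE annotation. GBE1 held 1 ACGTG, 112 bases before the start, and 2 GCGTG. GYS1 held 2 GCGTG, 85 and 108 bases before the start. PYGL held no match. GYG1 held 3 matches, including a CACGTG that began 43 bases before the start, and its mRNA did not pass the test against culture alone in either line. The listed GYG1 gene begins at base 148990601, upstream of this window, so the window lies inside the listed gene. PYGB held 3 GCGTG, the 2 UGP2 windows held 2 and 1 matches, and the 3 PGM1 windows held 0, 3 and 0. At least 1 match of either kind was present in 48.4% of all 35116 promoter windows of this length and at least 2 in 23.1%. At least 3 were present in 10.1%, at least 4 in 4.40% and CACGTG in 7.26%. The matches are letters in a window, not measured binding sites.

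In MRC5 fibroblasts cultured with H196, PGM1, glycogen synthase, the branching enzyme, the liver-type phosphorylase and both targeting subunits were higher than in MRC5_Mo, and the brain-type phosphorylase was lower. By edgeR's quasi-likelihood test with Benjamini-Hochberg adjustment over 12819 genes, 7 of the 9 genes rose, 1 fell and 1 did not pass at an adjusted p of 0.05. Over all genes tested, 37.2% passed as higher and 37.1% as lower, and in normalized CPM no library of one group overlapped with the other for 8 of the 9 genes, all but GYG1, and for 75.5% of all genes. With a further limit of 0.58 on the absolute log2 fold change, which defines a differentially expressed gene (DEG) here, 6 of the 9 genes were higher and 0 were lower, against 17.2% and 14.7% of all genes. The median log2 fold change of the 9 genes was 0.92, and that of all genes was -0.003. Fold changes are relative to edgeR's TMM scaling. Scaled to library totals instead, the median of all genes moved to -0.18. The calls then split into 3467 higher and 6295 lower in place of 4765 and 4757, and the DEGs into 1530 and 2978 in place of 2207 and 1885. Of the 9 genes, 6 then passed as higher and 2 as lower, and PYGB passed the DEG limit as lower, as it did with limma on log2(FPKM + 1) and log2(FPKM + 0.1).

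GYG1, glycogenin, which primes a new glycogen chain, is listed at chr3:148990601-149031775 (GRCh38.p13, as for the other positions below). It measured 58.0, 57.0 and 61.4 FPKM (fragments scaled to gene length and library size) in the 3 MRC5_Mo libraries, 54.4, 57.1 and 59.5 in MRC5_CoH69 and 51.7, 59.9 and 56.5 in MRC5_CoH196. The 3 groups overlapped. The log2 difference of MRC5_CoH196 from MRC5_Mo was 0.06 (95% confidence interval -0.03 to 0.16, adjusted p = 0.23). With library totals this value turned to -0.11 (adjusted p = 0.0432), so no direction is given for GYG1.

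UGP2 makes UDP-glucose, the substrate of glycogen synthase, and is listed at chr2:63840969-63891562. Its FPKM were 52.5, 54.5 and 51.9 in MRC5_Mo, 55.1, 53.0 and 59.7 in MRC5_CoH69 and 49.7, 55.0 and 48.0 in MRC5_CoH196, and the groups overlapped on this scale, although in normalized CPM MRC5_CoH196 and MRC5_Mo did not. On the TMM scale UGP2 was among the 7 genes that passed as higher in MRC5_CoH196, with a log2 fold change of 0.12 ± 0.050 (SE, adjusted p = 0.0327). The direction flipped with library totals, to -0.053 (adjusted p = 0.366), and with limma on log2(FPKM + 1), to -0.060 (adjusted p = 0.398). The call was also lost without the library MRC5_CoH196 replicate 2 (0.08, adjusted p = 0.172), without MRC5_Mo replicate 1 (adjusted p = 0.0703) and without MRC5_Mo replicate 3 (adjusted p = 0.0971).

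PGM1 interconverts glucose 1-phosphate and glucose 6-phosphate, and so stands between glycogen and glycolysis. It is listed at chr1:63593411-63660245. The 3 MRC5_Mo libraries gave 27.5, 26.9 and 25.3 FPKM, MRC5_CoH69 gave 32.4, 32.8 and 33.5, and MRC5_CoH196 gave 40.9, 40.8 and 41.5. None of the 3 groups overlapped, with MRC5_CoH69 between the other two. PGM1 rose 1.74-fold with H196 (log2 0.80 ± 0.047 SE, adjusted p = 1.01e-13).

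GYS1, the glycogen synthase of muscle and most other tissues, is listed at chr19:48968130-48993309. Its level was 28.1, 30.5 and 28.9 FPKM in MRC5_Mo, 29.3, 29.3 and 27.0 in MRC5_CoH69 and 57.4, 54.9 and 56.2 in MRC5_CoH196. All MRC5_CoH196 libraries lay above all other MRC5 libraries. GYS1 rose 2.17-fold (log2 1.12 ± 0.048 SE, adjusted p = 1.77e-16). The liver synthase GYS2 had at most 1 count in any MRC5 library.

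GBE1, the branching enzyme, is listed at chr3:81489569-81761666. It had 42.0, 42.7 and 43.1 FPKM in MRC5_Mo, 41.0, 41.3 and 41.7 in MRC5_CoH69 and 91.2, 94.8 and 98.3 in MRC5_CoH196, and the last group stood apart from the other two. GBE1 rose 2.51-fold (log2 1.33 ± 0.043 SE, adjusted p = 5.09e-19). In FPKM, a scale per length on which genes can be ranked, GBE1 moved from rank 4 of the 9 genes in MRC5_Mo to rank 1 in MRC5_CoH196, at 94.8 ± 3.56 FPKM (SD, n = 3).

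PYGL and PYGB are the liver and brain forms of glycogen phosphorylase, and they moved in opposite directions. PYGL, listed at chr14:50905217-50944483, measured 26.9, 25.2 and 24.9 FPKM in MRC5_Mo, 25.5, 24.7 and 27.0 in MRC5_CoH69 and 42.3, 43.8 and 43.3 in MRC5_CoH196. It rose 1.89-fold (log2 0.92 ± 0.047 SE, adjusted p = 4.74e-15), with no overlap between MRC5_CoH196 and the other groups. PYGB, listed at chr20:25248039-25298012, measured 66.3, 69.7 and 67.1 FPKM in MRC5_Mo, 63.3, 64.3 and 59.3 in MRC5_CoH69 and 44.0, 44.7 and 44.7 in MRC5_CoH196. Its libraries with H196 were all below the others, and PYGB fell by 0.43 on the log2 scale (SE 0.044, adjusted p = 2.79e-09). With library totals it fell by 0.61, and PYGL rose by 0.75 on the log2 scale.

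PPP1R3B and PPP1R3C are glycogen-targeting subunits of protein phosphatase 1. PPP1R3B, which is listed on a sequence outside the chromosomes and is given no position here, was the least abundant of the 9 genes in MRC5, with 2.04, 1.86 and 1.61 FPKM in MRC5_Mo, 1.99, 2.15 and 2.03 in MRC5_CoH69 and 5.30, 5.81 and 6.70 in MRC5_CoH196. It rose 3.63-fold (log2 1.86 ± 0.091 SE, adjusted p = 2.30e-15), the largest fold change among the 9 genes in this fit (with limma on log2(FPKM + 1), PPP1R3C was larger, at 1.39 against 1.29), on 157 to 671 counts per library in the 2 groups. PPP1R3C, listed at chr10:91628442-91633071, measured 19.4, 18.9 and 18.1 FPKM in MRC5_Mo, 19.0, 19.6 and 20.9 in MRC5_CoH69 and 46.5, 51.0 and 55.6 in MRC5_CoH196. It rose 3.05-fold (log2 1.61 ± 0.059 SE, adjusted p = 5.85e-18). For both subunits, every library with H196 lay above every other MRC5 library.

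**Figure D1:**
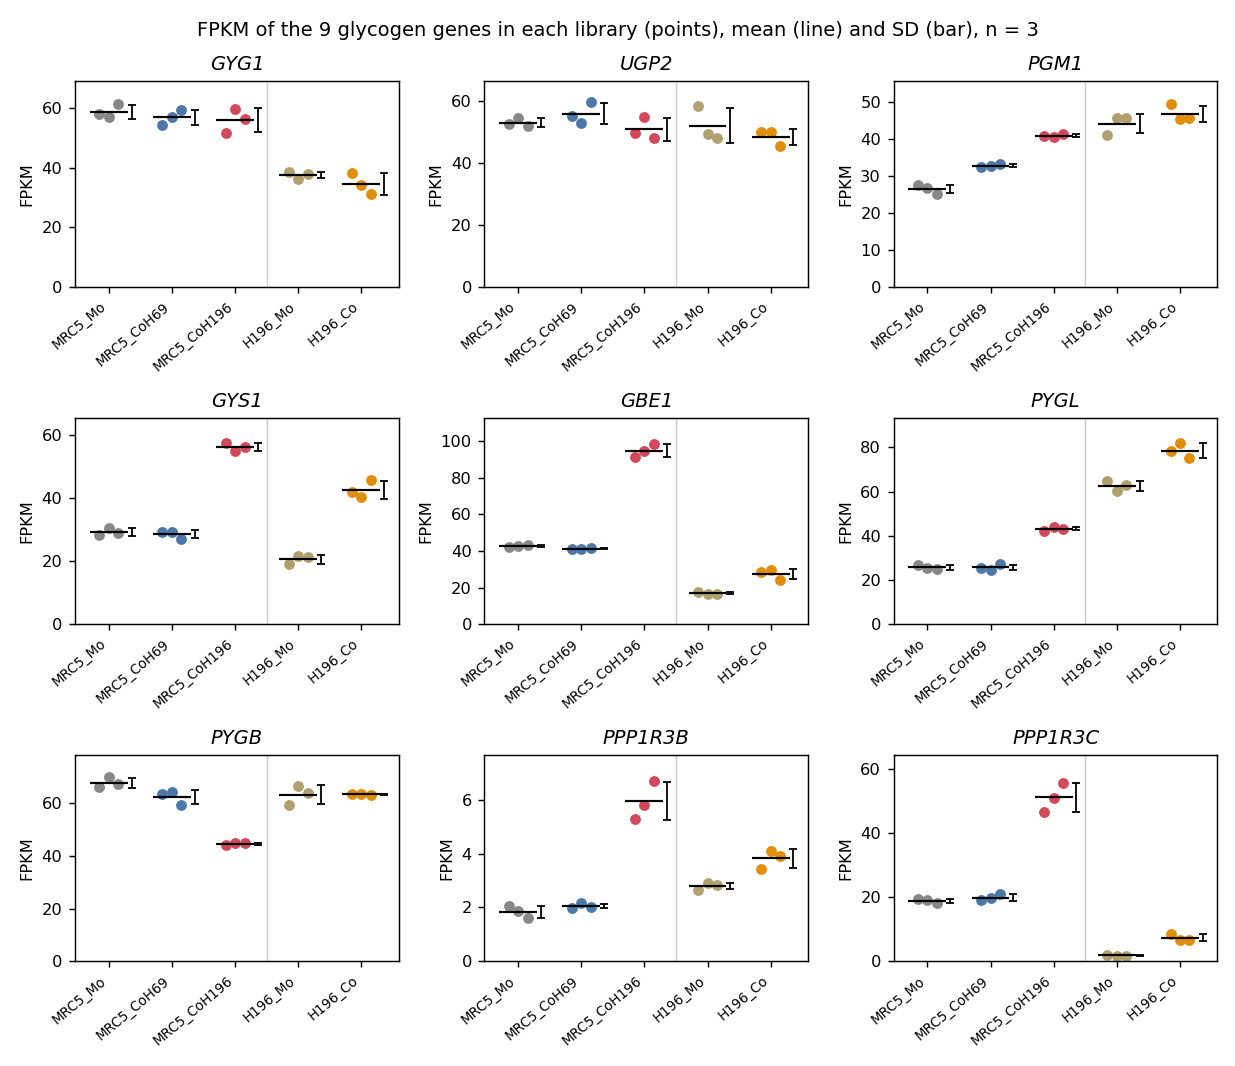
FPKM (vertical axes, linear from 0) of the 9 genes in each of the 15 libraries, by group (horizontal axes), with points for libraries, lines for means and bars for SDs of 3 libraries. The FPKM of the 2 cell lines come from separately normalized tables. GYS1, GBE1, PPP1R3B and PPP1R3C stand apart in MRC5_CoH196, PYGB is lowest there, and GYG1 and UGP2 overlap among the MRC5 groups.

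Culture with H69 left 8 of the 9 genes without a call. By the same test, 1 of the 9 genes rose and 0 fell in MRC5_CoH69, where 3.78% of all genes passed as higher and 2.93% as lower. The gene was PGM1, which rose 1.25-fold (log2 0.32 ± 0.048 SE, adjusted p = 0.000109), less than the DEG limit, which 0.554% of all genes passed in either direction. With library totals, calls over all genes split into 423 higher and 504 lower in place of 484 and 375, and the call of PGM1 held (0.30). The intervals of GYS1 (-0.12 to 0.08), GBE1 (-0.12 to 0.06), PYGL (-0.09 to 0.11) and PPP1R3C (-0.04 to 0.22) on the log2 scale lay below the values reached with H196. PPP1R3B had the widest interval, -0.05 to 0.39 (adjusted p = 0.406), and PYGB the lowest value, -0.11 (interval -0.20 to -0.02, adjusted p = 0.15). The median over the 9 genes was 0.01. In normalized CPM, 3 genes did not overlap between MRC5_CoH69 and MRC5_Mo, namely GBE1, PYGB and PGM1, and 25.7% of all genes did not.

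Set against each other, the fibroblasts with H196 and those with H69 differed in 8 of the 9 genes. The 3 MRC5 comparisons share libraries pairwise, the MRC5_Mo libraries among them, and are not independent of each other. Higher with H196 were 7 genes and lower was 1, where 35.7% of all genes passed as higher and 36.6% as lower (3304 and 6291 genes with library totals, in place of 4574 and 4695). The DEG limit was passed by 5 as higher and 0 as lower, against 15.2% and 13.1% of all genes: PPP1R3B (log2 1.69 ± 0.089 SE), PPP1R3C (1.52 ± 0.058), GBE1 (1.36 ± 0.043), GYS1 (1.14 ± 0.048) and PYGL (0.91 ± 0.047). PGM1 was higher by 0.48 and PYGB was lower, at -0.33 (adjusted p = 3.97e-07), below the DEG limit in size. GYG1 passed at 0.11 (adjusted p = 0.0494) but turned to -0.053 (adjusted p = 0.337) with library totals. Its call was also lost without MRC5_CoH196 replicate 2 (adjusted p = 0.126) or 3 (0.0842), MRC5_CoH69 replicate 1 (0.201), 2 (0.0511) or 3 (0.0511), or MRC5_Mo replicate 2 (0.0535). UGP2 did not pass (0.03, interval -0.07 to 0.13), while with library totals it passed as lower (-0.13, adjusted p = 0.0319). Without overlap in normalized CPM were 8 of the 9, all but UGP2, and 73.1% of all genes.

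H196 cells cultured with MRC5 were higher in synthase, branching enzyme, liver-type phosphorylase and both targeting subunits than H196 cells alone, with PPP1R3C and GYS1 changing most. By the same test over 12806 genes, 5 of the 9 genes rose, 0 fell and 4 did not pass, and 12.0% of all genes passed as higher and 7.78% as lower. With library totals the calls over all genes turned from 1542 higher and 996 lower to 1024 and 2067. With the DEG limit, 3 of the 9 were higher and 0 lower, against 3.26% and 0.601% of all genes (417 and 77 genes, or 320 and 141 with library totals). The median log2 fold change over the 9 genes was 0.40, and that of all genes was -0.001.

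PPP1R3C had 1.82, 1.78 and 1.76 FPKM in H196_Mo, on 66 to 70 counts, and 8.54, 6.60 and 6.72 in H196_Co. It rose 4.30-fold (log2 2.10 ± 0.134 SE, adjusted p = 6.32e-10), the largest change of the 9 genes in any co-culture comparison. GYS1 had 18.9, 21.5 and 21.2 FPKM in H196_Mo and 42.0, 40.2 and 45.6 in H196_Co, and it rose 2.19-fold (log2 1.13 ± 0.080 SE, adjusted p = 3.39e-09). The groups did not overlap for either gene.

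GBE1 had 17.5, 16.5 and 16.6 FPKM in H196_Mo and 28.5, 29.6 and 24.2 in H196_Co, and it rose 1.72-fold (log2 0.78 ± 0.079 SE, adjusted p = 6.42e-07). PYGL, the most abundant of the 9 genes in H196_Co, had 64.7, 60.4 and 62.8 FPKM in H196_Mo and 78.6, 81.9 and 75.3 in H196_Co, and rose 1.32-fold (log2 0.40 ± 0.066 SE, adjusted p = 0.000243). PPP1R3B had 2.66, 2.89 and 2.82 FPKM in H196_Mo and 3.43, 4.11 and 3.92 in H196_Co, and rose 1.44-fold (log2 0.53 ± 0.094 SE, adjusted p = 0.000559). These 3 genes did not overlap between the groups, and PYGL and PPP1R3B stayed below the DEG limit.

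The remaining 4 genes did not pass in H196. PGM1 had 41.2, 45.8 and 45.7 FPKM in H196_Mo and 49.5, 45.6 and 45.7 in H196_Co, with a log2 difference of 0.16 (interval 0.003 to 0.32, adjusted p = 0.141). It passed when all 15 libraries were put in one model (0.18, adjusted p = 0.0259). PYGB had 59.3, 66.4 and 63.7 FPKM in H196_Mo and 63.4, 63.6 and 63.3 in H196_Co, a log2 difference of 0.08 (interval -0.06 to 0.23, adjusted p = 0.439). GYG1 had 38.6, 36.4 and 38.0 FPKM in H196_Mo and 38.4, 34.1 and 31.1 in H196_Co (log2 -0.04, interval -0.19 to 0.12). UGP2 had 58.5, 49.4 and 48.1 FPKM in H196_Mo and 49.9, 50.1 and 45.3 in H196_Co (log2 -0.02, interval -0.18 to 0.14). All 4 overlapped in FPKM. In normalized CPM 6 of the 9 genes, PGM1 included, were without overlap, as were 37.2% of all genes.

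**Figure D2:**
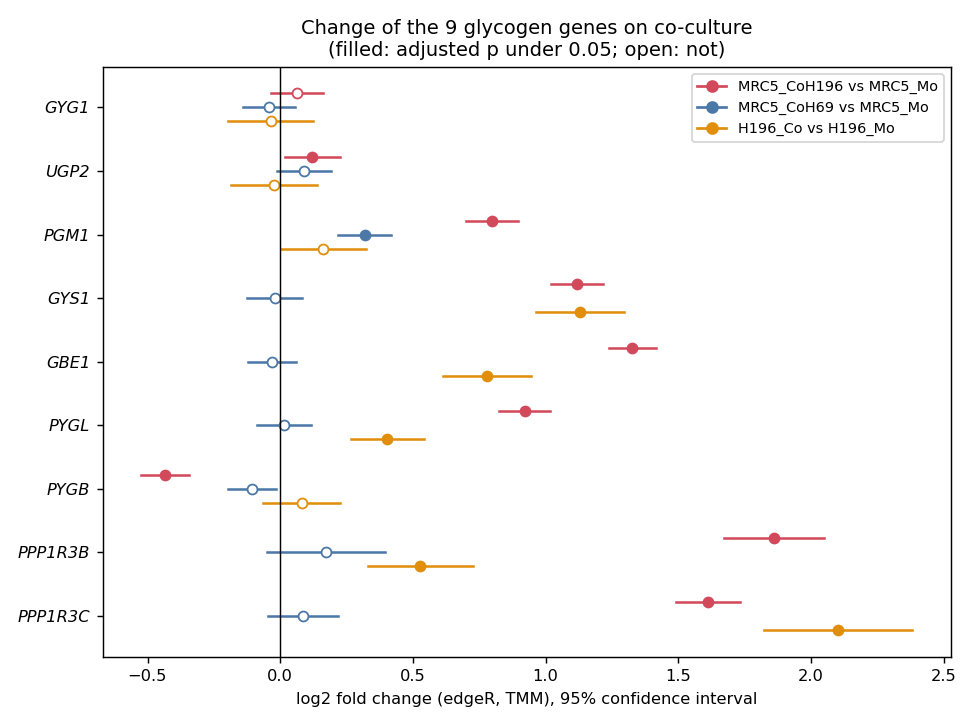
Log2 fold change (horizontal axis, edgeR with TMM scaling) of the 9 genes in 3 comparisons of co-culture with culture alone, with bars for the 95% confidence interval and filled points for an adjusted p under 0.05. With H69, PGM1 is the 1 filled point, with H196, 7 points are filled on the right and PYGB on the left, and in H196_Co 5 are filled, led by PPP1R3C at 2.10.

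The change of MRC5 with H196 and that of H196 with MRC5 were compared in one model of all 15 libraries, over 13585 genes. They come from separate set-ups, each with the partner in the insert, and not from both sides of one culture. Line, medium and deposited table cannot be told apart in this contrast. Of the 9 genes 6 differed, with a more positive change in MRC5 for 4 and in H196 for 2. Over all genes the shares were 24.1% and 27.1% (2762 and 4293 genes with library totals, in place of 3275 and 3683). The change was larger in the fibroblasts for PPP1R3B (difference in log2 fold change 1.31 ± 0.138 SE, adjusted p = 1.01e-08), PGM1 (0.61 ± 0.084, adjusted p = 8.53e-07), GBE1 (0.52 ± 0.085, adjusted p = 9.09e-06) and PYGL (0.49 ± 0.072, adjusted p = 2.33e-06). It was larger in H196 for PPP1R3C (-0.52 ± 0.150, adjusted p = 0.00484), from a mean of 1.79 FPKM in H196_Mo against 18.8 in MRC5_Mo. With limma on log2(FPKM + 1), which damps changes at low levels, PPP1R3C rose by 1.56 in H196 and by 1.39 in MRC5. PYGB, which fell in the fibroblasts and did not pass in H196, differed by -0.54 ± 0.076 (adjusted p = 1.12e-06). GYS1, which rose 2.17-fold in MRC5 and 2.19-fold in H196, did not pass (-0.04, interval -0.22 to 0.14). GYG1 (interval -0.10 to 0.25) and UGP2 (interval -0.07 to 0.30) did not pass either.

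Without a partner, the 2 lines differed in the level of most of these genes, as they did for most of all genes tested. Line, medium and deposited table cannot be told apart in this comparison. In the model of all 15 libraries, 6 of the 9 genes were higher and 2 lower in MRC5_Mo than in H196_Mo, where 42.6% of all genes were higher and 44.0% lower. Without overlap in normalized CPM were 8 of the 9 genes, all but PPP1R3B, and 87.6% of all genes. PPP1R3C was 14.3-fold higher in MRC5_Mo (log2 3.83 ± 0.108 SE, adjusted p = 5.63e-23) and GBE1 3.43-fold (1.78 ± 0.062). GYG1 (1.07 ± 0.060) and GYS1 (0.95 ± 0.065) were also higher in MRC5_Mo. PYGL was lower in MRC5_Mo, at -0.85 ± 0.052 (adjusted p = 7.51e-15), and PGM1 at -0.30 ± 0.060. Scaling to library totals moved the median of all genes to -0.45 in this comparison, with 4022 genes higher and 8034 lower in place of 5781 and 5979. With it, PYGB went from 0.54 to 0.12 (adjusted p = 0.0338), UGP2 went from 0.47 to 0.04 (adjusted p = 0.55), and PPP1R3B went from -0.17 (adjusted p = 0.141) to -0.59 (adjusted p = 9.72e-06), while PPP1R3C, GBE1, GYG1, GYS1, PYGL and PGM1 kept direction and call.

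The order of the genes by mean FPKM also differed between groups. In MRC5_Mo PYGB came first (67.7 ± 1.81 FPKM, SD, n = 3), followed by GYG1 (58.8 ± 2.29), UGP2 (53.0 ± 1.38), GBE1 (42.6 ± 0.551), GYS1 (29.2 ± 1.23), PGM1 (26.6 ± 1.18), PYGL (25.6 ± 1.09), PPP1R3C (18.8 ± 0.651) and PPP1R3B (1.84 ± 0.216). The libraries of PGM1 and PYGL overlapped, and those of the other neighbours did not. In MRC5_CoH196 GBE1 came first, and the libraries of GYS1, GYG1, PPP1R3C and UGP2, with means from 50.9 to 56.2 FPKM, overlapped with those of at least 1 neighbour. In H196_Mo PYGB (63.1 ± 3.59) and PYGL (62.6 ± 2.17) overlapped at the top, and PPP1R3C was last (1.79 ± 0.031). In H196_Co PYGL (78.6 ± 3.31) was above PYGB (63.4 ± 0.156) without overlap.

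Ratios within a library do not depend on the scaling between libraries. The log2 ratio of GYS1 FPKM to the summed FPKM of the phosphorylases PYGL, PYGB and PYGM was -1.73, -1.64 and -1.67 in MRC5_Mo, -1.60, -1.61 and -1.68 in MRC5_CoH69 and -0.59, -0.69 and -0.65 in MRC5_CoH196. It was -2.71, -2.56 and -2.58 in H196_Mo and -1.76, -1.86 and -1.60 in H196_Co. The mean was higher by 1.03 in MRC5_CoH196 than in MRC5_Mo and by 0.88 in H196_Co than in H196_Mo, with no overlap in either, and by 0.05 in MRC5_CoH69, with overlap.

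The log2 ratio of PYGL to PYGB was -1.30, -1.47 and -1.43 in MRC5_Mo, -1.31, -1.38 and -1.14 in MRC5_CoH69 and -0.06, -0.03 and -0.05 in MRC5_CoH196. Both phosphorylase mRNAs were thus at nearly equal FPKM in the fibroblasts with H196. In H196 the ratio was 0.13, -0.14 and -0.02 in H196_Mo and 0.31, 0.37 and 0.25 in H196_Co. The means differed by 1.36 between MRC5_CoH196 and MRC5_Mo and by 0.32 between H196_Co and H196_Mo, again without overlap. With MRC5_CoH69 the difference was 0.12, with overlap. By the two-sided exact permutation test, each of the 4 differences without overlap had p = 0.1, which is the smallest p that 3 libraries against 3 allow (0.15 after adjustment over 6 comparisons), and both differences with H69 had p = 0.3.

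**Figure D3:**
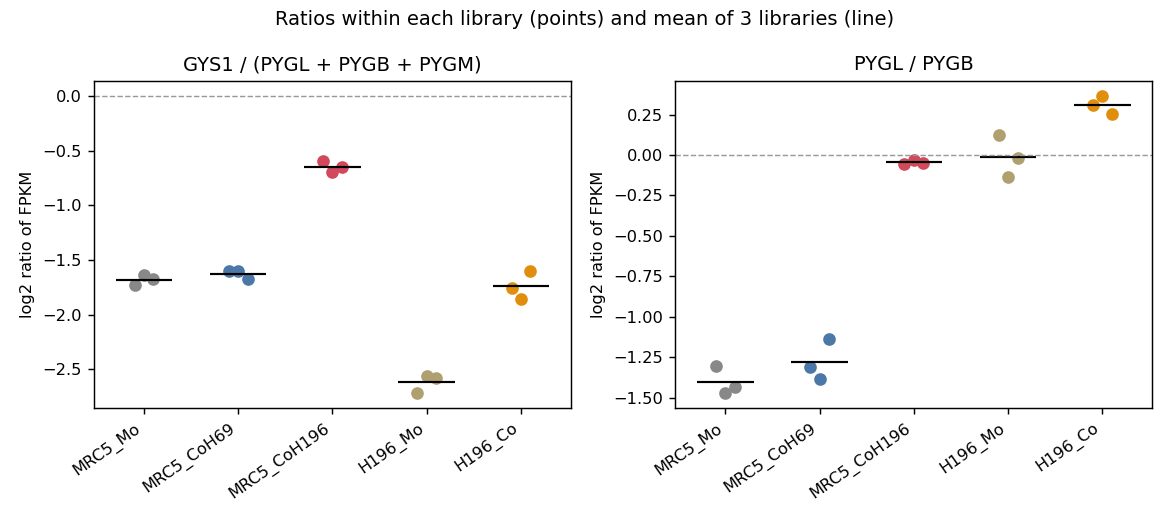
Log2 ratio of FPKM within each library (vertical axes) for GYS1 over the summed phosphorylases and for PYGL over PYGB, by group (horizontal axes), with points for libraries and lines for means of 3. The GYS1 ratio lies between -0.69 and -0.59 in MRC5_CoH196, above all other groups, and the PYGL to PYGB ratio is near 0 there.

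The other genes of the pathway were followed as a list of 29. In MRC5_CoH196 against MRC5_Mo, 27 were tested, 12 rose, 8 fell and 7 did not pass, against 37.2% higher and 37.1% lower over all genes. The DEG limit was passed by 8 as higher and 3 as lower, where 17.2% and 14.7% of all genes passed it, and the median log2 fold change was 0.20. With library totals, 10 rose, 13 fell and the median was 0.02, while the directions of the genes named in the next sentences held. Of these, STBD1, which tethers glycogen to membranes, had 5.29 to 6.24 FPKM in MRC5_Mo and 15.8 to 17.3 in MRC5_CoH196, and rose by a log2 of 1.68 ± 0.075 (SE, adjusted p = 4.00e-16). PPP1R3G, another targeting subunit, had 0.36 to 0.42 FPKM in MRC5_Mo and 1.22 to 1.47 in MRC5_CoH196 and rose by 1.92 ± 0.168 (adjusted p = 1.78e-10). PGM2L1, which makes glucose 1,6-bisphosphate, the cofactor of phosphoglucomutase, rose by 1.53 ± 0.093 (adjusted p = 1.66e-13). GAA, which breaks down glycogen in lysosomes, had 14.0 to 15.7 FPKM in MRC5_Mo and 21.3 to 23.7 in MRC5_CoH196 and rose by 0.76 ± 0.057 (adjusted p = 1.07e-11). PPP1R3E (0.78) and PGM5 (0.65) also passed as higher.

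The 3 genes past the DEG limit as lower were PPP1CA, a catalytic subunit of protein phosphatase 1, at -0.74 ± 0.046 (adjusted p = 2.98e-13), EPM2A, the glycogen phosphatase laforin, at -0.67, and G6PC3, a glucose 6-phosphatase, at -0.60. PPP1CA had 132 to 140 FPKM in MRC5_Mo and 70.8 to 74.3 in MRC5_CoH196, while PPP1CB, another catalytic subunit, rose by 0.42. The phosphorylase kinase subunits PHKA1 (-0.44), PHKB (-0.24) and PHKG2 (-0.41) fell, and PHKA2 did not pass (-0.02), but passed as lower with library totals (-0.20). The muscle phosphorylase PYGM and the kinase subunit PHKG1, also called, had 1 to 4 and 5 to 9 counts per library in MRC5_Mo and 15 to 19 and 17 to 21 in MRC5_CoH196, so no fold change is given for them.

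With H69, 1 of the 27 genes rose and 0 fell, against 3.78% and 2.93% of all genes, namely PGM2L1 at 0.35 (adjusted p = 0.0416, or 0.0547 with library totals), and the median was 0.08. G6PC3 passed as lower there with library totals (-0.18). In H196_Co, 24 were tested, 2 rose, 3 fell and 19 did not pass, against 12.0% higher and 7.78% lower over all genes, with a median of -0.002. With library totals EPM2A and PPP1CC were added to those that fell. STBD1 had 7.53 to 8.25 FPKM in H196_Mo and 11.3 to 12.2 in H196_Co and rose by 0.65 ± 0.087 (adjusted p = 2.06e-05), and PPP1R3E rose by 0.43 (adjusted p = 0.00582). PPP1R3D, a targeting subunit, fell by 0.74 (adjusted p = 0.000849), and GSK3B, a kinase that inhibits glycogen synthase, fell by 0.31 (adjusted p = 0.00554). By the interaction test, both had a more positive change in MRC5 than in H196, by 0.99 for PPP1R3D (adjusted p = 0.000103) and 0.51 for GSK3B (adjusted p = 4.54e-06). STBD1 and PPP1R3E thus passed as higher in both partners.

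**Figure D4:**
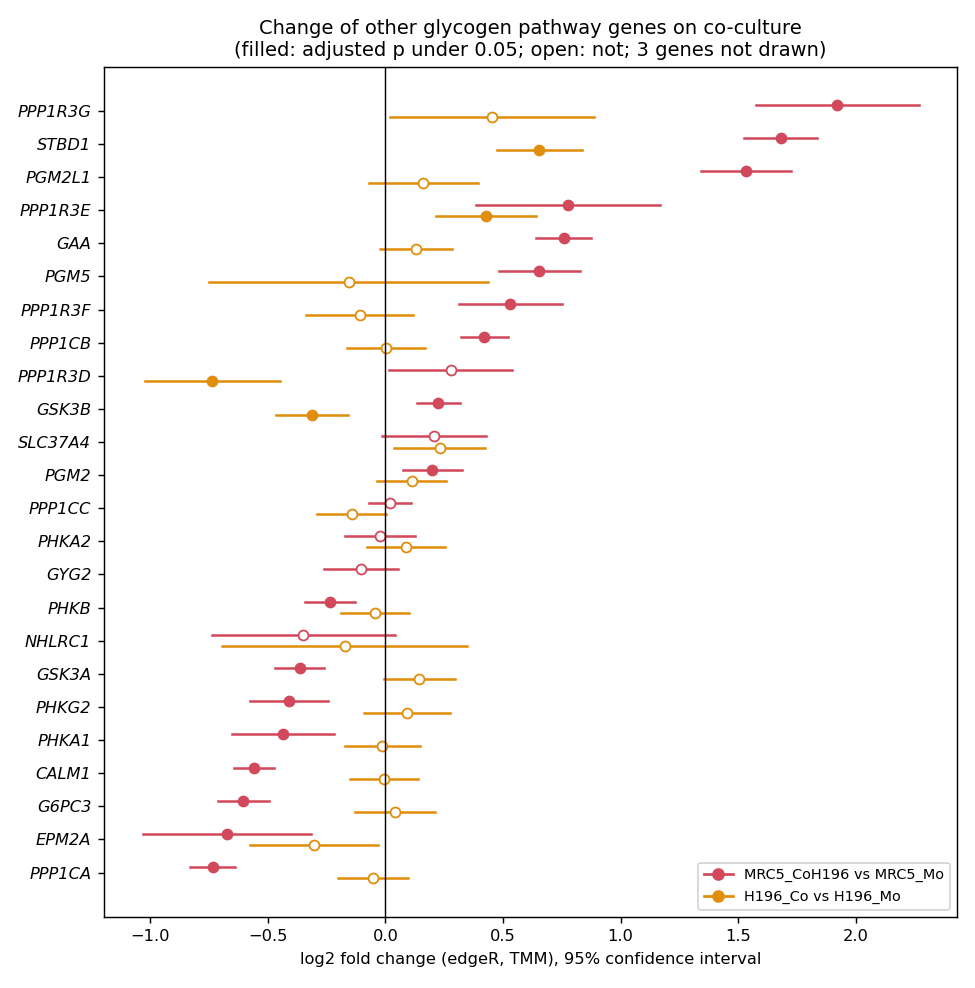
Log2 fold change (horizontal axis, edgeR with TMM scaling) with 95% confidence interval of 24 of the 27 other pathway genes tested in MRC5_CoH196 against MRC5_Mo and, where tested, in H196_Co against H196_Mo, with filled points for an adjusted p under 0.05. PPP1R3G, STBD1 and PGM2L1 lie farthest to the right in the fibroblasts, PPP1CA lies farthest to the left, and most points of H196_Co are open.

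The hypoxia reporters are given beside these genes, and a link between them was not tested. In MRC5_CoH196 all 10 rose, with a median log2 fold change of 3.27, where 37.2% of all genes passed as higher. In H196_Co all 8 tested rose, with a median of 1.35, against 12.0% of all genes. CA9 and EGLN3, with at most 5 counts in any H196 library, were not tested there. In MRC5_CoH69 5 of 10 passed as higher, with a median of 0.22, against 3.78% of all genes. Among all genes, those whose pattern over the 15 libraries was most like that of a member were found by Pearson's r of log2 CPM, centred on the line cultured alone, over 8323 genes. Libraries of lines cultured alone lie near 0 on this scale by construction, so r rests on the co-cultured libraries and is given as a description without a test. For GBE1 the nearest were WDR45B (r = 0.995), HILPDA (0.994) and CHSY1 (0.993). For GYS1 they were TCAF2 (0.989), HK1 (0.988), a hexokinase, and BCKDK (0.987). For PPP1R3C they were STC2 (0.989), SEMA4B (0.988) and GPI (0.986), a glycolytic enzyme. PYGL was nearest to GOLGA8A (0.998), RNMT (0.996) and BHLHE41 (0.996), and PPP1R3B to MTA1 (0.993), ZNF337 (0.993) and SLC25A23 (0.992). PGM1 was nearest to HSPA2 (0.988), TGFBI (0.987) and CSRP2 (0.979), and PYGB to ENTPD6 (0.986), TMEM201 (0.985) and LIG1 (0.983). UGP2 (ACTR6, 0.902, STK38, 0.889, and STK39, 0.864) and GYG1 (CSTB, 0.779, PIGF, 0.774, and SNX3, 0.773) had no gene as close. Within the 9 genes, GYS1 and PPP1R3C (0.972) and GBE1 and PYGL (0.983) were the closest pairs, and PYGB and PGM1 (-0.847) the most opposed.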

How the data were processed

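Total RNA of MRC5 and H196 cells was enriched for poly(A) mRNA and sequenced on BGISEQ-500, with 3 libraries in each of 5 groups, assigned by their titles. The authors cleaned the reads with SOAPnuke (version 1.5.6) and mapped them with HISAT and Bowtie2. The genome build was GRCh38.p13. The submitters' processing notes also name HISAT2 2.1.0, Bowtie2 2.3.4.3 and RSEM 1.3.1. The deposited expected counts are not normalized, and 93.7% (MRC5) and 92.1% (H196) of them are whole. For FPKM, the authors scaled each count to gene length and library total, and each of the 2 deposited tables was made on its own. Strand use in counting is not given in the sources used here. Columns of the authors' DESeq2 fold changes and p-values, group averages and 18 (MRC5) and 12 (H196) per-library columns of TPM and normalized counts were not used.

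Expected counts were rounded, filtered with filterByExpr, scaled by TMM and tested with edgeR 4.0.16 (quasi-likelihood, two-sided, R 4.3.3) with group as the only term, over the 9 MRC5 or the 6 H196 libraries, or over all 15 for comparisons between lines. Benjamini-Hochberg adjustment ran over all genes tested. A gene passed at an adjusted p of 0.05 and was a DEG with an absolute log2 fold change above 0.58. SEs were taken as the absolute log2 fold change over the square root of F. Ratios were compared by exact permutation tests. Simulated data with 200 changed genes gave 200 recovered and 17 false calls among 12710 genes for MRC5_CoH196 against MRC5_Mo, and 200 and 13 among 12753 for H196_Co against H196_Mo. The changed genes were few, well counted and changed strongly, in both directions. The simulation therefore did not test small changes or a change of most genes at once. Alternatives were DESeq2 1.42.0, limma 3.58.1 on log2(FPKM + 1) and log2(FPKM + 0.1), DESeq2 size factors, 2 other filters, other sets of libraries, a replicate block and each library left out. Library totals without a scaling factor were added after seeing the data. Same-group libraries differed by more than sampling noise (chi-square per degree of freedom 1.89 to 10.8), so none was counted as a duplicate.

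The 9 genes, the 29 other pathway genes, the markers and the reporters were chosen with earlier results of these data known. Named genes are the members, list genes and, for each member, the 3 genes with the highest Pearson r among those with a mean of at least 10 CPM in each table. Promoter windows from RefSeq (GRCh38.p14) matched 8 of the 9 members, and the windows of 5 are printed. The values of 1 gene of the pathway list, which is in its counts and medians, are not reported here. PPP1R3A was not listed for H196. GYS2 and PPP1R3A were not tested in MRC5. The epithelial markers summed to 126 to 168 CPM in MRC5 and 213 to 274 CPM in H196, with CDH1 at 0 in both lines cultured alone.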

Additional observations from a re-analysis of the deposited data

Results flagged for a closer look

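The change on co-culture of MRC5 with H196 differed between the partners for 6 of the 9 genes. This was by the interaction term of edgeR's quasi-likelihood test, in which 24.1% of all genes passed as higher and 27.1% as lower. Of the 27 other pathway genes tested, 11 passed as higher and 7 as lower, so such a difference was not particular to the 9 genes. As the MRC5 change minus the H196 change on the log2 scale, the value was 1.31 for PPP1R3B, 0.61 for PGM1, 0.52 for GBE1 and 0.49 for PYGL. It was -0.54 for PYGB and -0.52 for PPP1R3C, which had only 66 to 70 counts per library in H196_Mo. PPP1R3B was higher in every MRC5_CoH196 library than in every MRC5_Mo library and in every H196_Co library than in every H196_Mo library, and PYGB was lower in all 3 MRC5_CoH196 libraries and overlapped in H196. All 6 genes passed without any 1 library and with library totals.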

How the results depend on the processing

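The number of the 9 genes that passed stayed within 1.5 times its main value in every comparison and alternative run. Leaving out 1 library gave 7 to 8 of 9 for MRC5_CoH196 against MRC5_Mo and against MRC5_CoH69, 1 for MRC5_CoH69 against MRC5_Mo, 5 for H196_Co, 8 between the lines and 6 for the difference of responses. In the comparisons of MRC5_CoH196 with the other MRC5 groups, UGP2 and GYG1 turned direction, and elsewhere members that did not pass changed sign near 0. UGP2 in MRC5_CoH196 against MRC5_Mo gave -0.0597 with limma on log2(FPKM + 1) and -0.0608 with log2(FPKM + 0.1), -0.0533 with library totals, and lost its call with DESeq2 (adjusted p = 0.0523) and in the model of all 15 libraries (adjusted p = 0.122). Against MRC5_CoH69, UGP2 gave -0.13 with library totals. GYG1 against MRC5_CoH69 gave -0.0252 with limma on log2(FPKM + 1), -0.0256 with log2(FPKM + 0.1) and -0.0526 with library totals, and against MRC5_Mo -0.11 with library totals. The GYS1 to phosphorylase ratio in MRC5_CoH196 was higher by 1.16 with counts in place of FPKM, against 1.03, as counts weight the phosphorylases by length. The cause of the other changes was not tested.

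Same-numbered libraries did not deviate together (r from -0.116 to 0.081 over 9 pairs in MRC5 and from -0.151 to 0.033 over 3 in H196), so the numbers were not read as pairs. With the replicate block, 8, 1, 7, 5, 8 and 6 of the 9 genes passed in MRC5_CoH196 against MRC5_Mo, MRC5_CoH69 against MRC5_Mo, MRC5_CoH196 against MRC5_CoH69, H196_Co against H196_Mo, MRC5_Mo against H196_Mo and the difference of responses, and the 1 call lost was GYG1 (adjusted p = 0.0553). Over all genes, calls in MRC5_CoH69 against MRC5_Mo went from 859 to 385 in the model of all 15 libraries, to 321 and 210 with limma and to 495, 561, 406 and 384 without MRC5_CoH69 replicate 1, MRC5_CoH69 replicate 2, MRC5_Mo replicate 2 and MRC5_Mo replicate 3, and DEGs from 71 to 44, 37 (DESeq2), 18 and 42 (limma). In H196 the DEGs went from 494 to 194 with limma on log2(FPKM + 1), and calls from 2538 to 1559 without H196_Co replicate 3 and 1656 without H196_Mo replicate 3. PPP1R3C in H196_Mo, at 66 to 70 counts, was the member with the fewest counts.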
